A study of Bos taurus with 45 samples.

Results

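LOXL2 (ENSBTAG00000006214) and CTGF (ENSBTAG00000006367) are 2 of the 24616 genes in the files and 2 of the 11516 that were detected, meaning that they had more than 1 RPM (reads on a gene per 1000000 reads on genes) in all 15 heifers on at least 1 diet. Both were taken because they passed that threshold in all 15 heifers on the 75% grain diet and on neither other diet, as 119 genes did, and because their mean on that diet was over 5 RPM. Both genes were thus chosen by their levels over the diets, and these levels are given below as a description with no test. The pH groups, the relation between the genes and the relation between levels of the same heifer on different diets were not themselves used in the choice and were tested. The levels that enter these tests were used, since the choice required at least 1 heifer at or under 1 RPM on both other diets for each gene. This bears on the correlations.

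LOXL2 belongs to the lysyl oxidase family, copper enzymes that oxidise lysine side chains of collagen and elastin so that the fibres can be cross-linked. CTGF, also named CCN2, is a secreted protein of the CCN family that binds integrins and growth factors, is induced by TGF-beta and by the Hippo pathway effectors YAP and TAZ, and is known for raising matrix production by fibroblasts. In the rumen, papillae carry a stratified epithelium on a core of connective tissue with vessels, so RNA from a whole biopsy comes from both layers. In such a bulk sample, fewer cells of a type and less RNA per cell cannot be told apart.

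Ruminal papillae were biopsied from the ventral sac of 15 Angus-Hereford cross-bred yearling heifers, each of which was stepped up from 3% grain through intermediate diets to 92% grain. The paper proposes that some of them may have had subacute acidosis on the highest grain diet. Each heifer was sampled on 3% grain at day 3, on 75% grain at day 15 and on 92% grain at day 26, which gave 45 RNA-seq samples. The heifers form 3 groups of 5 by the course of ruminal pH between the 75% and 92% diets, namely DG, in which pH fell, UG, in which it rose, and BG, in which it stayed similar. By the group means of the paper, pH was lower in UG than in DG on 75% grain and higher in UG on 92% grain. Every heifer took the diets in the same order, and samples of heifers held on 1 diet were not analysed here, so diet, time and repeated biopsy cannot be told apart.

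The libraries held 22.5 to 37.1 M reads on genes (M, 1000000 reads), so 1 RPM stood for at least 22.5 reads. Samples of heifer 172 on 3% grain and heifer 286 on 92% grain lay farthest from the median of their diet on the first principal components, at distances of 45.5 and 34.7 against a median of 8.48, and values without both heifers are given where a result rests on them. The sample of heifer 170 on 3% grain came next, at 26.1, and was kept in those values. No other gene of the matrix, collagen, Hippo or cell type marker lists could be matched to the files, since these carry gene identifiers without symbols, so the cell types of the biopsies were not checked here.

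Expression of LOXL2 was lowest on 3% grain, with a lowest value of 0.809, a median of 1.94 and a highest value of 5.72 RPM. On 75% grain the same values were 3.03, 4.74 and 9.70 RPM, and on 92% grain they were 0.984, 3.23 and 7.60 RPM. The ranges of the diets overlapped, although the highest 3% value came from 1 of only 2 heifers, 182 and 236, that had less LOXL2 on 75% than on 3% grain. Means were 2.40 ± 1.32, 5.28 ± 1.61 and 3.82 ± 1.81 RPM on 3%, 75% and 92% grain (SD, n = 15 each).

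Expression of CTGF ran from 0.741 to 11.4 RPM with a median of 2.64 RPM on 3% grain. It ran from 1.93 to 9.12 RPM with a median of 5.27 RPM on 75% grain, and from 0.842 to 9.50 RPM with a median of 4.76 RPM on 92% grain. The ranges of all 3 diets overlapped, and the 3% range held those of both other diets. The means, 3.70 ± 3.27, 5.08 ± 2.10 and 4.98 ± 2.50 RPM (SD, n = 15 each), lay closer together than the medians, since heifers 182 and 236 had 10.3 and 11.4 RPM on 3% grain where the other 13 heifers had 6.82 RPM or less.

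**Figure D1:**
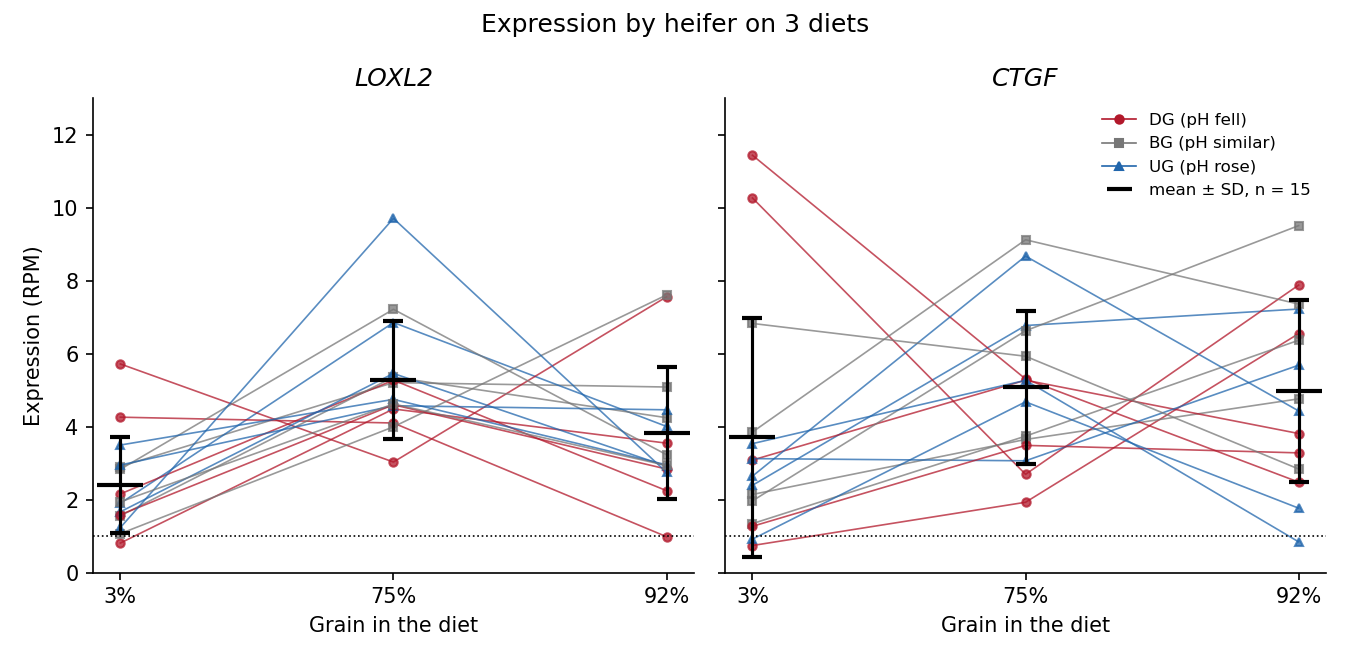
Expression of LOXL2 and CTGF in RPM (vertical axis) in each of 15 heifers on 3%, 75% and 92% grain, with 1 line per heifer coloured by pH group, black bars for mean ± SD and a dotted line at 1 RPM. LOXL2 had its highest value on 75% grain in 12 heifers, while the lines of CTGF cross and peak on 75% in 6 heifers, on 92% in 6 and on 3% in 3.

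The detection of these genes on a single diet turned on few animals. On 3% grain, LOXL2 was at or under 1 RPM only in heifer 170, at 0.809 RPM from 24 reads, for which the exact binomial 95% interval ran from 0.518 to 1.20 RPM. This sample also lay far from the median of its diet on the principal components, at 26.1. On 92% grain it was so only in heifer 236, at 0.984 RPM from 25 reads, with an interval from 0.637 to 1.45 RPM. CTGF missed the threshold on 3% grain in heifers 170 and 352, at 0.741 and 0.916 RPM, and on 92% grain in heifer 286, at 0.842 RPM, 1 of the samples that stood apart. The intervals of all 5 values included 1 RPM, and they cover counting error only. With the threshold at 0.5 RPM, both genes were detected in 15 of 15 heifers on every diet, and both genes were thus present on all diets. Among the 119 genes detected on 75% grain only, LOXL2 and CTGF lay by mean level on that diet between ENSBTAG00000009812 at 5.56 RPM and ENSBTAG00000011446, the first gene under the limit of 5, at 4.70 RPM.

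LOXL2 was higher on 75% than on 3% grain in 13 of 15 heifers, with a ratio of means of 2.20. Its log2 difference on the log2(RPM + 1) scale, which understates changes of low genes, was 0.94 with a standard error of 0.15, the 29th largest of the 11516 genes fitted. That fit had no term for the heifer, and with the heifer as a block the standard error was 0.17. In that comparison 1.54% of genes were called, with 1.41% called higher and 0.13% lower on 75% grain, using limma with limits of 0.05 on the Benjamini-Hochberg adjusted p and of 1.5 on the fold change. Of the 177 called genes 162 were higher and 15 lower, against 151 and 47 with edgeR and 161 and 55 with DESeq2, both run on whole reads recovered from the RPM. With TMM scaling 109 were higher and 20 lower. The median log2 difference over all genes was 0.084 without scaling and 0.0016 with TMM scaling. LOXL2 was among the called genes by the levels it was chosen for, so nothing is read from that call. From 75% to 92% grain LOXL2 was lower in 13 of 15 heifers, by a log2 difference of -0.43 with a standard error of 0.15, and only 0.564% of genes had a lower value. The exceptions were heifers 182 and 294, which had 7.55 and 7.60 RPM on 92% grain, the highest values on that diet.

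CTGF was higher on 75% than on 3% grain in 11 of 15 heifers, with a ratio of means of 1.37 and a log2 difference of 0.55 (standard error 0.24). With the heifer as a block its standard error was 0.21. It was not among the called genes, and its log2 difference was 0.38 with edgeR and with DESeq2 and 0.48 with TMM scaling. As with LOXL2, nothing is read from the call. Heifers 182, 236, 262 and 362 had less CTGF on 75% grain. From 75% to 92% grain it was higher in 7 and lower in 8 heifers, with a log2 difference of -0.08 (standard error 0.21), which turned to 0.02 without heifers 172 and 286. The lower mean of LOXL2 on 92% than on 75% grain thus had no counterpart of that size in CTGF, a difference between the genes that was not tested. No gene was called between 92% and 75% grain by limma or by edgeR's quasi-likelihood test (0%), while 1330 had an unadjusted p under 0.05 in limma and 1370 in edgeR. With the heifer as a block limma called 14 genes, and DESeq2 on recovered reads called 14, in neither case with LOXL2 or CTGF among them. Between 92% and 3% grain 2.07% of genes were called, 1.78% higher and 0.287% lower on 92% grain. These were 205 higher and 33 lower genes, against 214 and 96 with edgeR, 218 and 104 with DESeq2 and 145 and 46 with TMM scaling. The log2 differences of LOXL2 and CTGF were 0.50 (standard error 0.18) and 0.47 (standard error 0.27), with 13 and 11 of 15 heifers higher on 92% grain.

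The spread over heifers was wider for CTGF than for LOXL2 on each diet. The coefficient of variation over heifers was 55.0%, 30.5% and 47.4% for LOXL2 and 88.3%, 41.3% and 50.1% for CTGF on 3%, 75% and 92% grain. Counting error was smaller on every diet, at 13.3%, 8.41% and 10.5% for LOXL2 and 12.5%, 9.10% and 9.83% for CTGF. For both genes the spread over heifers was thus narrowest on 75% grain, the diet on which the rule required every heifer to be over 1 RPM, and this order was not tested.

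The levels of the 2 genes went together across heifers. On 3% grain Pearson's r of log2(RPM + 1) between LOXL2 and CTGF was 0.801 (permutation test, adjusted p = 0.00269) and Spearman's rho was 0.786 (permutation test, adjusted p = 0.00495), over 15 heifers and adjusted over 11 relations. Heifers 182 and 236 were high in both genes, with 5.72 and 4.26 RPM of LOXL2, and heifer 170 was lowest in both. The rule required at least 1 heifer at or under 1 RPM on this diet for each gene, which bears on r. Without heifer 170 r was 0.763 (permutation test, adjusted p = 0.00557). Without heifers 182 and 236, the farthest from the LOXL2 median, r was 0.601 (permutation test, unadjusted p = 0.0291, adjusted p = 0.110) and no longer passed after adjustment, so the call rests on those heifers.

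On 75% grain r was 0.469 (permutation test, adjusted p = 0.166) and rho 0.582 (permutation test, adjusted p = 0.0550), which did not pass. Without heifers 352 and 258 r was 0.527 (permutation test, unadjusted p = 0.0626, adjusted p = 0.115). Heifer 352 had the highest LOXL2 on this diet, 9.70 RPM, beside 4.68 RPM of CTGF, and without it alone r was 0.637 (permutation test, adjusted p = 0.0370). On 92% grain r was 0.583 (permutation test, adjusted p = 0.0645) and rho 0.732 (permutation test, adjusted p = 0.0106), so the rank correlation passed and Pearson's did not. Without heifers 236 and 294 r was 0.577 (permutation test, unadjusted p = 0.0401, adjusted p = 0.110). Heifer 286, with the lowest CTGF beside 2.91 RPM of LOXL2, weighed on Pearson's r, which was 0.658 without it (permutation test, adjusted p = 0.0259) and 0.677 without heifers 172 and 286 (permutation test, adjusted p = 0.0250). Whether r differed between diets was not tested.

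**Figure D2:**
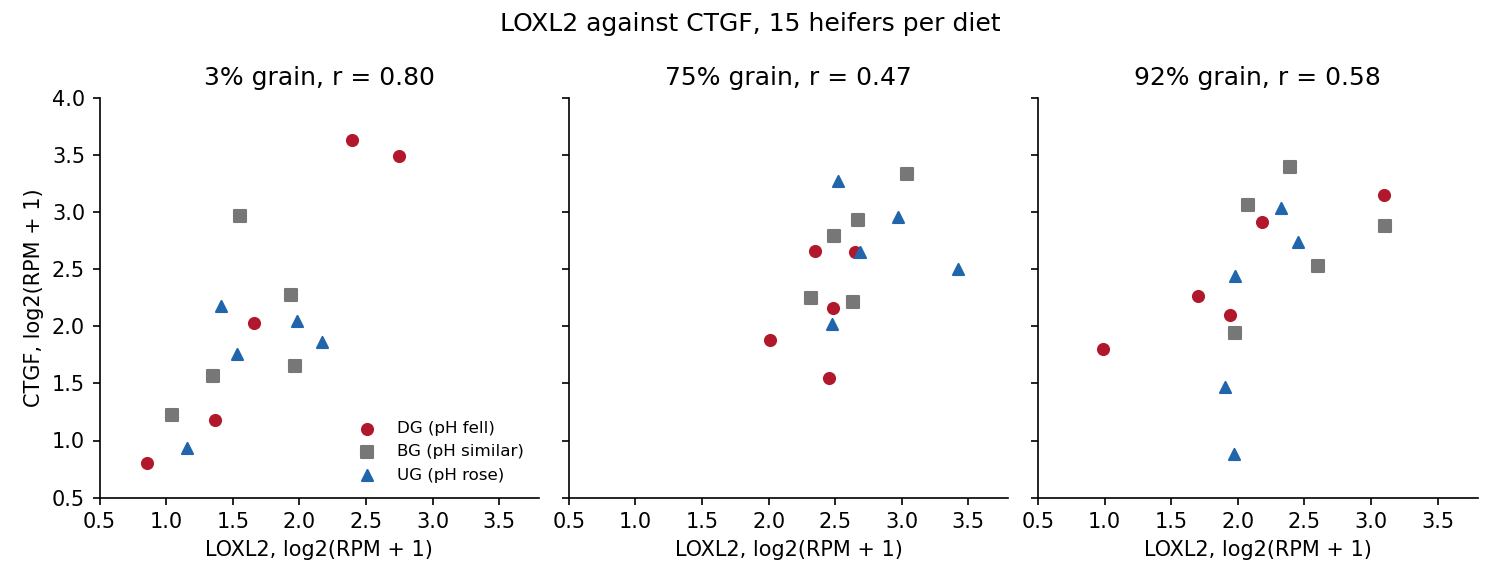
CTGF (vertical axis) against LOXL2 (horizontal axis), both as log2(RPM + 1), with 1 point per heifer, 1 panel per diet and symbols by pH group. The points rise together on 3% grain, where r was 0.801, and are more scattered on 75% and 92% grain, where r was 0.469 and 0.583.

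The changes within a heifer, which are differences of the levels above and so not separate evidence, went together as well. From 3% to 75% grain the log2 changes of LOXL2 and CTGF had an r of 0.799 (permutation test, adjusted p = 0.00269) and a rho of 0.618 (permutation test, adjusted p = 0.0464) over 15 heifers. The genes changed in the same direction in 13 heifers, upward in 11 and downward in 2, the latter being heifers 182 and 236. Without heifers 182 and 352, the farthest in the change of LOXL2, r was 0.586 (permutation test, unadjusted p = 0.0358, adjusted p = 0.110). From 75% to 92% grain r was 0.720 (permutation test, adjusted p = 0.00825) and rho 0.796 (permutation test, adjusted p = 0.00495), with the same direction in 10 heifers, upward in 2 and downward in 8. Without heifers 182 and 294, r was 0.639 (permutation test, unadjusted p = 0.0190, adjusted p = 0.110). Neither change passed after adjustment without those heifers, so both calls rest on them, although r stayed positive.

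Within pH groups of 5 heifers, for which values are given without a test, r between the genes on 3% grain was 0.970 in DG, 0.415 in BG and 0.562 in UG. For the change from 3% to 75% grain it was 0.963, 0.651 and 0.463, and for the change from 75% to 92% grain 0.835, 0.706 and 0.606. The relation was thus positive in each group on these measures. On 75% grain the values were 0.375, 0.780 and -0.0136, with UG holding heifer 352. Which sample was sequenced in which lane is not given in the sources used here, so values within lanes were not computed.

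No relation between the levels of the same heifer on different diets passed the test. The rule required a low heifer on 3% and on 92% grain and every heifer over 1 RPM on 75% grain, which bears on these values. For LOXL2, r between diets over the same 15 heifers was -0.386 for 3% and 75% grain, -0.281 for 75% and 92% grain and -0.0419 for 3% and 92% grain (permutation tests, adjusted p = 0.286, 0.483 and 0.884). Spearman's rho was -0.229 and -0.321 for the first and second pair of diets (permutation tests, adjusted p = 0.567 and 0.432). Without heifers 182 and 236 the first r was 0.00696 (permutation test, unadjusted p = 0.982, adjusted p = 0.982). For CTGF the r values were 0.194, -0.0714 and -0.0905 (permutation tests, adjusted p = 0.671, 0.881 and 0.881), with rho at 0.300, 0.0179 and -0.0821 (permutation tests, adjusted p = 0.432, 1.00 and 0.945). Without heifers 236 and 182, the farthest in CTGF on 3% grain, the first of these r values was 0.553 (permutation test, unadjusted p = 0.0498, adjusted p = 0.110), so a relation of CTGF between 3% and 75% grain is not excluded. Heifer 182 shows the course in single values, with 5.72, 3.03 and 7.55 RPM of LOXL2 and 10.3, 2.69 and 7.88 RPM of CTGF on 3%, 75% and 92% grain. Heifer 236 had less of both genes at each step, with 11.4, 5.30 and 2.48 RPM of CTGF and 4.26, 4.10 and 0.984 RPM of LOXL2.

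Sums of squares over the same 45 samples set these values beside other genes, and are not separate evidence. Of the LOXL2 variation that diet left over, the heifer took 20.4%, where 33.3% of the degrees of freedom belong to heifers and the median over the 11516 detected genes was 45.7%. Only 1.51% of genes had a lower share. For CTGF the heifer took 33.5%, and 17.6% of genes had a lower share. These shares are given as a description.

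The pH groups were compared on each diet and in each change, in 12 tests of DG against UG with an exact two-sided permutation test, whose smallest possible p with 5 heifers against 5 is 0.00794. LOXL2 on 75% grain in DG was 5.27, 4.60, 4.10, 4.48 and 3.03 RPM in heifers 192, 314, 236, 170 and 182. In UG it was 4.57, 6.85, 9.70, 5.45 and 4.74 RPM in heifers 262, 178, 352, 286 and 360, and in BG 5.20, 3.99, 5.36, 4.62 and 7.21 RPM in heifers 172, 294, 246, 362 and 258. DG held the lowest value and UG the highest, and the DG and UG ranges overlapped between 4.57 and 5.27 RPM. The group means were 4.30 ± 0.825 RPM in DG, 6.26 ± 2.12 RPM in UG and 5.28 ± 1.21 RPM in BG (SD, n = 5 each). DG minus UG was -0.43 on the log2 scale, with a limma 95% interval from -0.84 to -0.02. The exact permutation p was 0.0476 before and 0.571 after adjustment over the 12 tests, and limma's adjusted p over all genes was 0.721, so the difference did not pass.

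CTGF on 75% grain was 5.27, 3.48, 5.30, 1.93 and 2.69 RPM in the same order of DG heifers, and 3.06, 6.77, 4.68, 5.27 and 8.67 RPM in UG. In BG it was 3.65, 3.74, 6.62, 5.93 and 9.12 RPM. The 2 lowest values were in DG, and the groups overlapped. DG minus UG was -0.50 on the log2 scale, with an interval from -1.06 to 0.06 and an exact permutation adjusted p of 0.643.

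On 3% grain the DG heifers had 2.15, 1.58, 4.26, 0.809 and 5.72 RPM of LOXL2, and the UG heifers 2.95, 1.90, 1.23, 1.66 and 3.49 RPM. Of CTGF the DG heifers had 3.08, 1.27, 11.4, 0.741 and 10.3 RPM, and the UG heifers 3.12, 2.39, 0.916, 3.53 and 2.64 RPM. For both genes DG held the highest and the lowest values, and UG lay inside the DG range. The differences were 0.15 for LOXL2, with an interval from -0.57 to 0.88, and 0.47 for CTGF, with an interval from -0.65 to 1.59, at an exact permutation adjusted p of 0.762 for each. In BG, LOXL2 ran from 1.07 to 2.90 RPM and CTGF from 1.34 to 6.82 RPM.

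On 92% grain the DG heifers had 2.24, 2.84, 0.984, 3.55 and 7.55 RPM of LOXL2, and the UG heifers 4.46, 4.00, 2.75, 2.91 and 2.95 RPM. Of CTGF the DG heifers had 3.81, 3.28, 2.48, 6.55 and 7.88 RPM, and the UG heifers 5.68, 7.22, 1.76, 0.842 and 4.43 RPM. The groups overlapped for both genes. DG minus UG was -0.14 for LOXL2, with an interval from -0.80 to 0.51, and 0.33 for CTGF, with an interval from -0.52 to 1.18 (exact permutation tests, adjusted p = 0.762 for each). Without heifer 286 the CTGF difference was 0.02. In BG, LOXL2 ran from 2.93 to 7.60 RPM and CTGF from 2.84 to 9.50 RPM.

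The changes between diets did not pass either. LOXL2 was higher on 75% than on 3% grain in 3 of 5 DG, 5 of 5 BG and 5 of 5 UG heifers, with mean log2 changes of 0.58 ± 0.95, 1.06 ± 0.26 and 1.17 ± 0.77 (SD, n = 5 each). From 75% to 92% grain its mean log2 changes were -0.41 ± 0.93 in DG, -0.20 ± 0.65 in BG and -0.69 ± 0.53 in UG, and it was lower in 5 of 5 UG heifers. CTGF had the widest gaps, with mean log2 changes from 3% to 75% grain of -0.05 ± 1.17 in DG and 0.92 ± 0.68 in UG and from 75% to 92% grain of 0.26 ± 1.00 in DG and -0.57 ± 0.98 in UG (SD, n = 5 each). DG minus UG in these CTGF changes was -0.97, with an interval from -2.05 to 0.11, and 0.83, with an interval from -0.23 to 1.90, and the exact permutation adjusted p was 0.643 for each. For LOXL2 the differences were -0.58, with an interval from -1.70 to 0.53, and 0.28, with an interval from -0.66 to 1.22, and from 3% to 92% grain they were -0.30 for LOXL2 and -0.14 for CTGF (exact permutation tests, adjusted p from 0.762 to 0.865). The intervals reach beyond a log2 value of 1 in some of these comparisons, so differences of that size are not excluded in those comparisons.

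**Figure D3:**
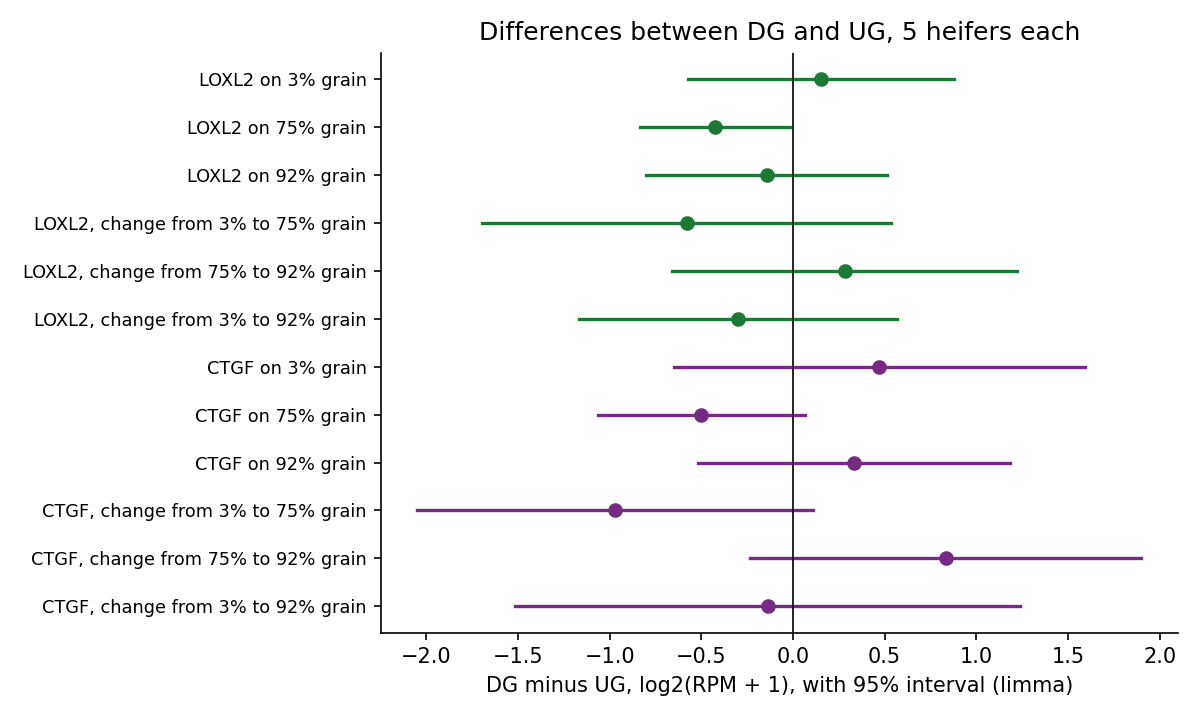
Difference DG minus UG in log2(RPM + 1) (horizontal axis) for LOXL2 (green) and CTGF (purple) on each diet and for each change between diets, with points for the difference of means of 5 heifers each and lines for limma's 95% interval. Every interval spans 0 except that of LOXL2 on 75% grain, which runs from -0.84 to -0.02 and did not pass after adjustment over the 12 tests.

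In none of the 6 DG against UG comparisons was any gene called by limma (0% of 11516 genes). The genes with an unadjusted p under 0.05 numbered 914, 792 and 395 on 3%, 75% and 92% grain. For the changes from 3% to 75%, 75% to 92% and 3% to 92% grain they numbered 1078, 1188 and 410. The quasi-likelihood test of edgeR on recovered reads, run for the 3 diets, called 0 genes as well, with 891, 791 and 487 at an unadjusted p under 0.05.

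Over all 45 samples r between LOXL2 and CTGF was 0.678, and 0.658 after each diet was centred on its mean. Ranked by likeness among 11515 other genes, CTGF stood at place 132 for LOXL2, and LOXL2 at place 33 for CTGF. With diet means removed the places were 78 and 38. The points share libraries, heifers and depth, and the median r with other genes was 0.159 for LOXL2 and 0.170 for CTGF, so these ranks are a description. LOXL2 had closer neighbours than CTGF did, with 113 against 22 genes over an r of 0.7. The gene most like LOXL2 was ENSBTAG00000013472, with an r of 0.920, and the gene most like CTGF was ENSBTAG00000009233, with an r of 0.801. Of the 100 genes most like each among the 11515, 41 were shared, which is 41% of either list, and 37 with diet means removed. Genes that are themselves correlated share neighbours, so this overlap is not separate evidence beside the r of 0.678.

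**Figure D4:**
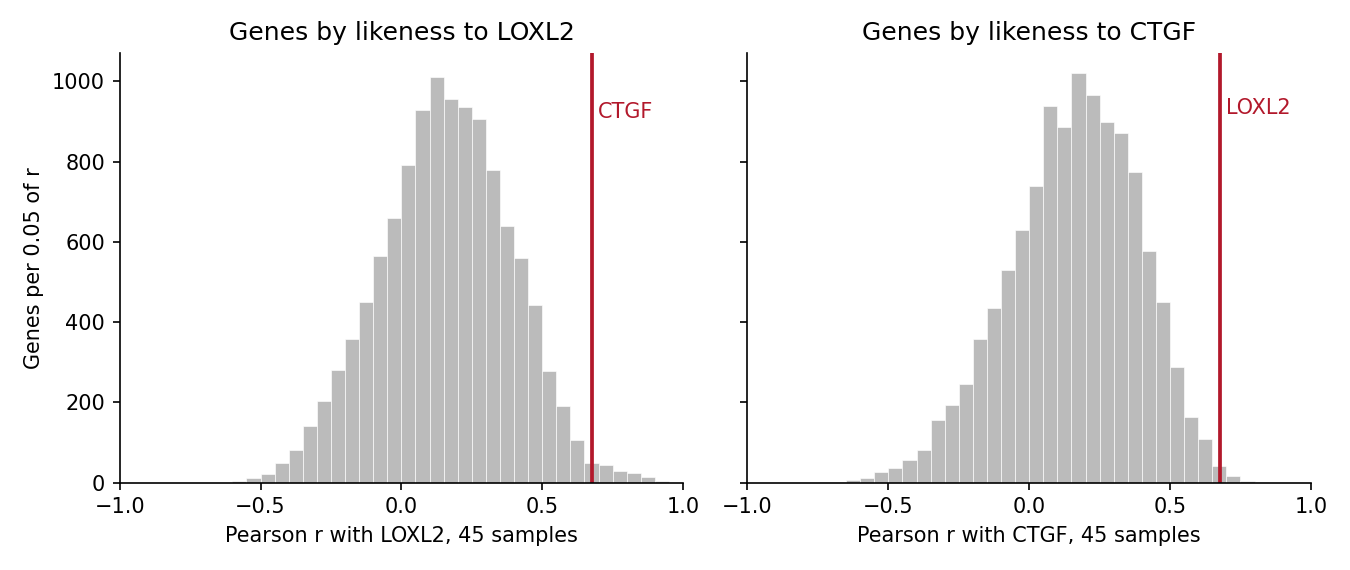
Number of genes (vertical axis, bins 0.05 wide) by Pearson r of log2(RPM + 1) with LOXL2 or with CTGF over 45 samples (horizontal axis), with a red line at the r of the other gene. The lines stand at 0.678, far to the right of the medians of 0.159 and 0.170, where CTGF stood at place 132 for LOXL2 and LOXL2 at place 33 for CTGF.

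Symbols are paired with identifiers for only 9 other genes that were listed for detection on a single diet, and these were less like either gene. For LOXL2 the highest were CXorf57 at an r of 0.271, BOLA-A, a class I histocompatibility gene, at 0.124 and BMP6, a bone morphogenetic protein of the TGF-beta superfamily, at 0.0348. For CTGF they were BMP6 at 0.197, CXorf57 at 0.192 and BOLA-A at 0.176. With diet means removed BMP6 was the highest of the 9, with an r of 0.465 to LOXL2 and 0.486 to CTGF. The medians over other genes were then 0.0841 and 0.130. Before diet means were removed BMP6 stood at places 8180 and 5225 among 11515 genes. Its place with diet means removed was not computed.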

How the data were processed

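RNA of 45 ruminal papillae samples was sequenced as TruSeq mRNA libraries (paired 100-bp reads, Illumina HiSeq), in lanes that each held all 3 diets, after selection for RNA integrity. Per the study's methods and the labels, the authors demultiplexed with CASAVA 1.8, aligned with TopHat2 2.0.10 to UMD 3.1, counted with htseq-count on Ensembl genes (strand setting not given in the sources used here) and deposited RPM. The methods define RPM over all mapped reads of a library, but the deposited values of each sample sum to 1000000, so they are reads on a gene per 1000000 reads on genes. In RefSeq, a snoRNA, LOC112447920, overlaps LOXL2, and no gene overlaps CTGF. Whole reads were recovered from the RPM, with 100% of values within 0.01 of a whole read, which gave 30.4 M reads (M, 1000000 reads) per library on average.

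Diet percentages are those of the labels (3%, 75% and 92% grain), where the methods write 0%, 72% and 89%. The labels give the heifer and the diet. The pH groups came from the study's supplementary listing of DG and UG heifers, and BG are the 5 heifers in neither. Over 990 pairs of libraries chi-square per degree of freedom was 20.6 or more, so no library was a copy.

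The detected genes entered fits in limma 3.58.1 (R 4.3.3), whose variance trend was kept, after RPM was raised by 1 and log2 transformed. The main fits between diets had no term for the heifer, so samples of the same heifer were treated as independent. A called gene passed limits of 0.05 on the Benjamini-Hochberg adjusted p and of 1.5 on the fold change. Single values were compared with exact permutation tests, adjusted over 12, and correlations with 100000 permutations, adjusted over 11 (scipy 1.17.1). Alternatives were edgeR 4.0.16 and DESeq2 1.42.0 on recovered reads, a heifer block, other scalings, pseudocounts and filters, and leaving out heifers. When tested on simulated data in which 200 genes had a fold of 2, limma recovered 94.5% with 15 samples against 15 for 75% against 3% grain and 80.5% with 5 against 5 for DG against UG on 75% grain. False calls numbered 0 and 7. The 200 genes were drawn from all detected genes, so these shares do not give the recovery for LOXL2 or CTGF. Samples of 1 heifer come from the same animal, and their deviations from the diet means had a median correlation of 0.356 over 45 pairs, with 39 over 0.1, against -0.0220 over 630 pairs of different heifers.

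The 2 genes, the gene lists and the tests were chosen with earlier results of these data known. Genes were to be named from 18 lists, from the 5 genes with a symbol most like each member, and as the members themselves. No table used here pairs the files' identifiers with symbols except for 11 genes named in the study, so the lists and cell type markers were not analysed here, and no sequence or coordinate of either gene is given. ENSBTAG00000009812, ENSBTAG00000011446, ENSBTAG00000013472 and ENSBTAG00000009233 were named after their values were seen.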

Additional observations from a re-analysis of the deposited data

How the results depend on the processing

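The correlation of LOXL2 with CTGF on 3% grain and in the changes from 3% to 75% and from 75% to 92% grain passed on the RPM scale, with TMM scaling, without heifers 172 and 286 and without any 1 heifer, with r from 0.728 to 0.870, from 0.650 to 0.912 and from 0.646 to 0.779. Without the 2 heifers farthest in LOXL2, r was 0.601, 0.586 and 0.639, and none passed after adjustment (permutation tests, adjusted p = 0.110 for each). TMM scaling and leaving out 1 heifer at a time were added for the correlations after seeing the data. Leaving out 1 heifer gave r from 0.364 to 0.637 on 75% grain, which passed only without heifer 352, and from 0.533 to 0.658 on 92% grain, which passed only without heifer 286; without heifers 172 and 286 the latter was 0.677. No DG against UG difference and no relation between diets passed after adjustment under any alternative run or without the 2 farthest heifers, where CTGF between 3% and 75% grain had r = 0.553 (permutation test, unadjusted p = 0.0498, adjusted p = 0.110). Their changes of sign are of values that had not passed. Leaving out 1 heifer gave LOXL2 DG minus UG from -0.082 to 0.39 on 3% grain (negative without heifer 182), from -0.42 to 0.10 on 92% grain (positive without 236), from -0.091 to 0.52 for the change from 75% to 92% grain (negative without 182) and from -0.59 to 0.10 for the change from 3% to 92% grain (positive without 236). For CTGF the change from 3% to 92% grain ran from -0.61 to 0.38, positive without heifer 236, 182 or 178. Between 3% and 92% grain r over the same heifers ran from -0.436 to 0.270 for LOXL2 (positive without 236 or 294) and from -0.274 to 0.0567 for CTGF (positive without 236). For CTGF it ran from -0.00996 to 0.448 between 3% and 75% grain (negative without 170) and from -0.208 to 0.0340 between 75% and 92% grain (positive without 170 or 182). On the RPM scale LOXL2 DG minus UG on 92% grain was 0.0176 RPM, r of LOXL2 between 3% and 92% grain was 0.160 and r of CTGF between 75% and 92% grain was 0.0574. The cause of these changes was not tested. A pseudocount of 0.1 gave 307 and 358 called genes for 75% and 92% against 3% grain, where a pseudocount of 1 gave 177 and 238. For 92% against 75% grain the heifer as a block gave 14, DESeq2 14 and both TMM and median-of-ratios scaling 2 called genes in place of 0. The block changed no call of LOXL2 or CTGF, and gave 185 and 250 called genes against 3% grain. At a threshold of 2 RPM, LOXL2 was over it in 7 heifers on 3% grain. Counts of called list genes were not run, since the lists could not be matched. The lowest values rest on 22 to 29 reads, so heifers near 1 RPM cannot be placed above or below it at this depth.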
